A study of Mus musculus with 13 samples.

Results

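The 43 genes described here build, drive or take apart the mitotic spindle and divide the cell, and they were chosen by name: mouse symbols of mitosis and cytokinesis genes, looked up by Ensembl identifier in the count table. All 43 were among the 55416 entries of the table. Each was read together with the gene whose exons overlap its own on the other DNA strand, called its opposite row; 12 of the 43 have one. Polyadenylated RNA of mouse brain tumors and of normal mouse brain was sequenced in 13 libraries.

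PDGFB tumors (n = 5) were glioblastomas started by a lentivirus that carried PDGFB, a growth factor, and shRNA-p53, a hairpin against the tumor suppressor p53 (genotype PDGFB-shP53). RAS tumors (n = 5) came from a lentivirus with HRasV12, a constantly active Ras, and the same kind of hairpin (HrasV12-shp53). Both were injected in motor cortex; the hosts were CNP-Cre mice, which carry the allele Cnptm1(cre)Kan and make Cre from the oligodendrocyte gene Cnp. GFP+ tissue was dissected at the endpoint from 5 mice per tumor type, so the groups are those 2 oncogenes on a shared p53 hairpin and Cre. Normal brain tissue (n = 3) came from animals labelled WT, with no brain region named, so region and tumor cannot be told apart in a comparison with it. Ages are not among the labels, and nothing in them says that the 3 normal libraries are 3 animals. Their titles are NBT-M1, NBT-F1 and MBT-F2, and the last, normal brain 3, begins with other letters than the others though its tissue label is the same. Without it 17 of 25 listed genes tested were higher in PDGFB tumors and 15 in RAS tumors. Of all 8387 genes tested in that fit, 1411 and 1978 were higher. With all 13 libraries 7722 genes passed the low-count filter and 20 listed genes were tested, so the counts are not of the same genes. P-values then measure the spread between these libraries.

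As background, a cell enters mitosis when the kinase CDK1 is switched on by cyclins A and B. Aurora and Polo kinases, motor proteins and microtubule binding proteins then build the spindle, kinetochores tie chromosomes to it, and a checkpoint holds back the anaphase-promoting complex until every chromosome is attached. The central spindle and a contractile ring finally divide the cytoplasm. Most of these genes are transcribed late in the cell cycle and are silent in resting neurons and glia, so their messages are read as a sign of dividing cells; a bulk sample cannot tell fewer dividing cells from less RNA per dividing cell.

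Late cell cycle promoters are known for 2 elements: the cell cycle genes homology region (CHR, TTTGAA), read by the MuvB complexes that repress these genes at rest and activate them before mitosis, and the CCAAT box, read by NF-Y. Both were searched on either strand in the 300 bases from 250 before to 50 after each start in RefSeq (GRCm38.p6), which held 39 promoters of 37 of the 43 genes. TTTGAA stood in 30 of the 39 (76.9%), against 17.9% of all 32851 promoters. CCAAT stood in 31 of the 39 (79.5%), against 37.4% of all. Both stood in 27 of the 39 (69.2%), against 7.0% of all. A match is a description of the letters and not a bound site. The promoters of 5 genes that passed the low-count filter, from those with the largest mean CPM (reads per 1e+06 counted for genes) in tumors, are shown 5′ to 3′, with both elements and their reverse complements in capitals. Kif20a, Ccna2 and Incenp, also among the largest, are not shown.
Kif4 (chrX:100625815-100626114, plus strand): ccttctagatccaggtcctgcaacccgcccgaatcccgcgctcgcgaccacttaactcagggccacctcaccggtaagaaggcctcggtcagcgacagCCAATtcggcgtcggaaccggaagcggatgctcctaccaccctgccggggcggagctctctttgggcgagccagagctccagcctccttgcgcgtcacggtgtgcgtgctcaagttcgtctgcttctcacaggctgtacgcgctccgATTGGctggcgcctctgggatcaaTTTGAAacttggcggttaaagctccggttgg
Top2a (chr11:99024140-99024439, minus strand): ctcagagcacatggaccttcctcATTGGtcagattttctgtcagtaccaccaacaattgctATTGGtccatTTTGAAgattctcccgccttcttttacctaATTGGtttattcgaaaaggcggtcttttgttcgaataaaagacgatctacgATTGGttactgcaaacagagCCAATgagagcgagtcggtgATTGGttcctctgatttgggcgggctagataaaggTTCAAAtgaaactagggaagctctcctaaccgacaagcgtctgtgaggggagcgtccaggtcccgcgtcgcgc
Nusap1 (chr2:119618048-119618347, plus strand): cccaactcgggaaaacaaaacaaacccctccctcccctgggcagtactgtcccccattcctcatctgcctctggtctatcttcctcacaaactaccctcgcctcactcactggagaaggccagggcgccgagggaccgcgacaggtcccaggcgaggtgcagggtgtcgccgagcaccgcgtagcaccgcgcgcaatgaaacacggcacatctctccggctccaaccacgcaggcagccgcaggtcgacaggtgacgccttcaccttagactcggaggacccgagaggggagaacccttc
Mki67 (chr7:135716330-135716629, minus strand): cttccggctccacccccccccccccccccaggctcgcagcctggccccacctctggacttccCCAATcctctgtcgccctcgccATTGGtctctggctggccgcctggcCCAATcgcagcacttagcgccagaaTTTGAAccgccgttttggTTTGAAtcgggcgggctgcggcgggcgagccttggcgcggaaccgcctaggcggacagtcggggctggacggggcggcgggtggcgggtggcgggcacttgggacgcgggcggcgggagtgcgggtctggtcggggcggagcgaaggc
Cdca8 (chr4:124936868-124937167, minus strand): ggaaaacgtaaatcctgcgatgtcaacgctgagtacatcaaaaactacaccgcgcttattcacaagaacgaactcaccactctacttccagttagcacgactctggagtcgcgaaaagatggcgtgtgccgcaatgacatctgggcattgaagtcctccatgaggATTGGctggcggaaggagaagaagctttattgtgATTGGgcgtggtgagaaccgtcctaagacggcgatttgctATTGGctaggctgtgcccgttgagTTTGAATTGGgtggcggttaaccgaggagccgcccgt
Kif4, Top2a, Mki67 and Cdca8 hold both elements. In Cdca8 the 2 elements share bases, so that 1 stretch of capitals is both. Nusap1 holds neither. The 4 genes with both elements include Mki67 and Top2a, which rose in tumors, and Kif4 and Cdca8, which did not pass the test in any comparison.

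Libraries held 529162 to 643055 reads counted for genes, while no gene took 95.2% to 95.7% of the uniquely mapped ones. Trp53, the target of the hairpin, had 1 to 2 reads per PDGFB tumor, 0 to 5 per RAS tumor and 0 to 4 per normal brain, too few to judge a knockdown. Pdgfb had 4 to 21 reads per PDGFB tumor, 1 to 4 per RAS tumor and 3 to 6 per normal brain, and Hras had 4 to 16, 9 to 25 and 16 to 19. Entries whose exons overlap an exon of the other strand were 15.7% of all and held 83.7% of the counts, with 192 reads per kb of exon, against 13.3 for entries with no gene on the other strand. The same division ran through the mitosis genes. The 12 opposite rows held 603 reads per kb over the 13 libraries, the 12 listed genes facing them 147, and the other 31 listed genes 14.7. Strand marking by the kit and the strand setting of the count are not stated, so reads of a listed gene and of its opposite row cannot be told apart, and "Kif20a" below means reads deposited under that name. Which strand the deposited counts follow was not tested, and this limits every value given here, those of the 31 genes with no opposite row included. On the first principal component of all genes tested (56.4% of the variance) RAS tumor 2 stood at -11.2. The other 4 RAS tumors stood at -53.3 to -71.4. PDGFB tumors stood at -10.7 to 13, so that RAS tumor 2 lay next to them. Results are given with and without RAS tumor 2 where it matters.

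**Figure D1:**
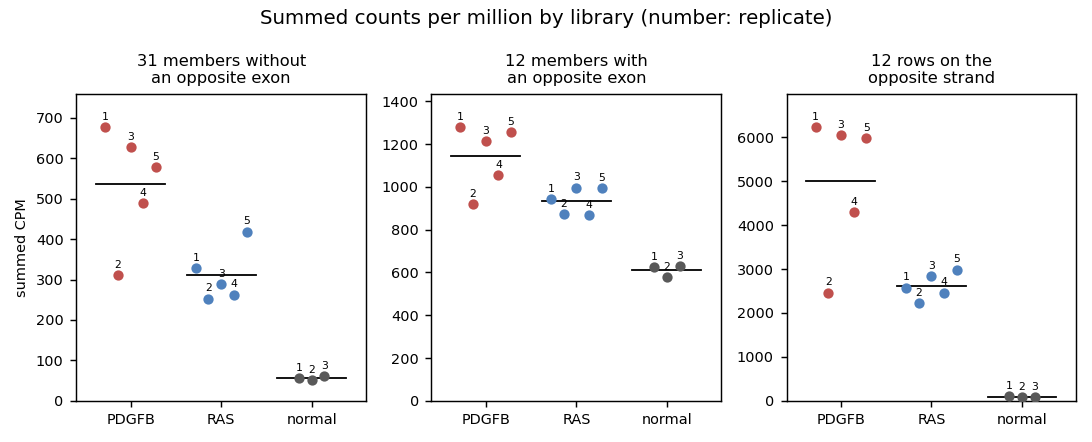
Summed CPM (y axis) in each library, by group (x axis), for the 31 listed genes with no opposite exon, the 12 with one, and the 12 opposite rows; points are libraries with their replicate number, bars are group means. Every tumor lies above all 3 normal brains in each panel, and PDGFB tumor 2 lies lowest of the PDGFB tumors.

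Tumors held more reads under the mitosis genes than normal brain did. Summed over the 31 genes with no opposite exon, the level was 537 ± 144 CPM in PDGFB tumors, 310 ± 67.2 CPM in RAS tumors and 56.1 ± 5.07 CPM in normal brain (SD). Summed over the 12 genes with an opposite exon it was 1146 ± 154 CPM in PDGFB tumors, 936 ± 62.1 CPM in RAS tumors and 612 ± 29.0 CPM in normal brain. The opposite rows summed to 5007 ± 1624 CPM in PDGFB tumors, 2619 ± 303 CPM in RAS tumors and 89.7 ± 18.3 CPM in normal brain. All 43 genes had reads in both tumor types, and 19 of the 43 had no read in any normal brain. In PDGFB tumors 34 of the 43 lay above normal brain with no overlap of CPM between libraries, and in RAS tumors 25 did; of all 23301 entries with a read, 11.6% and 11.4% did so. PDGFB tumor 2 was the lowest of its group for 22 of the 43 genes and 10 of the 12 opposite rows. Its summed marker levels were 759 CPM for neurons (387 to 869 in the other 4), 1145 CPM for oligodendrocyte precursors (888 to 1222) and 343 CPM for macrophages (354 to 450); their part in its low values was not tested.

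Tests used edgeR's quasi-likelihood method on raw counts, with Benjamini-Hochberg adjustment over the 7722 genes that passed a low-count filter and an adjusted p under 0.05 as the threshold. Of the 43 genes, 20 passed the filter. Against normal brain, 13 of the 20 were higher in PDGFB tumors and none was lower, where 20.2% of all genes tested were higher and 25.1% lower. In RAS tumors 12 of the 20 were higher and 1, Nusap1, was lower, where 26.9% of all genes were higher and 29.3% lower. The median log2 fold change of the 20 was 2.99 in PDGFB tumors and 1.82 in RAS tumors, or 2.56 and 1.43 with the 4 genes at 0 in normal brain set to their lower bounds; over all genes tested it was -0.0023 and 0.016. A gene absent from normal brain can pass the filter through the tumors alone, so these counts describe the 20 and support nothing by themselves. With no filter all 43 were tested: 31 were higher in PDGFB tumors, where 8.37% of 23301 entries were, and 26 were higher and 1 lower in RAS tumors, where 11.6% and 12.9% were. The 31 held all 13 of the filtered test, and the 26 held 10 of the 12. A looser filter (1 CPM in 3 libraries) also kept all 43, with 31 higher in PDGFB tumors (10.3% of all genes) and 25 in RAS tumors (15.0%). In a fit of entries with no opposite exon, 9 of 12 genes tested were higher in PDGFB tumors (18.1% of that fit) and 8 in RAS tumors (26.4%). In a fit of RAS tumors and normal brain alone 6 of 10 genes tested were higher (28.0% of all). Without PDGFB tumor 2 the filtered test called 15 higher in PDGFB tumors and 13 higher and 1 lower in RAS tumors. Without RAS tumor 2 it called 15 higher in PDGFB tumors and 11 higher and 0 lower in RAS tumors. Over all 7549 genes tested without PDGFB tumor 2, 1434 were higher in PDGFB tumors, and 2043 were higher and 2216 lower in RAS tumors. Over all 7580 tested without RAS tumor 2, 1821 were higher in PDGFB tumors, and 2311 were higher and 2159 lower in RAS tumors.

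**Figure D2:**
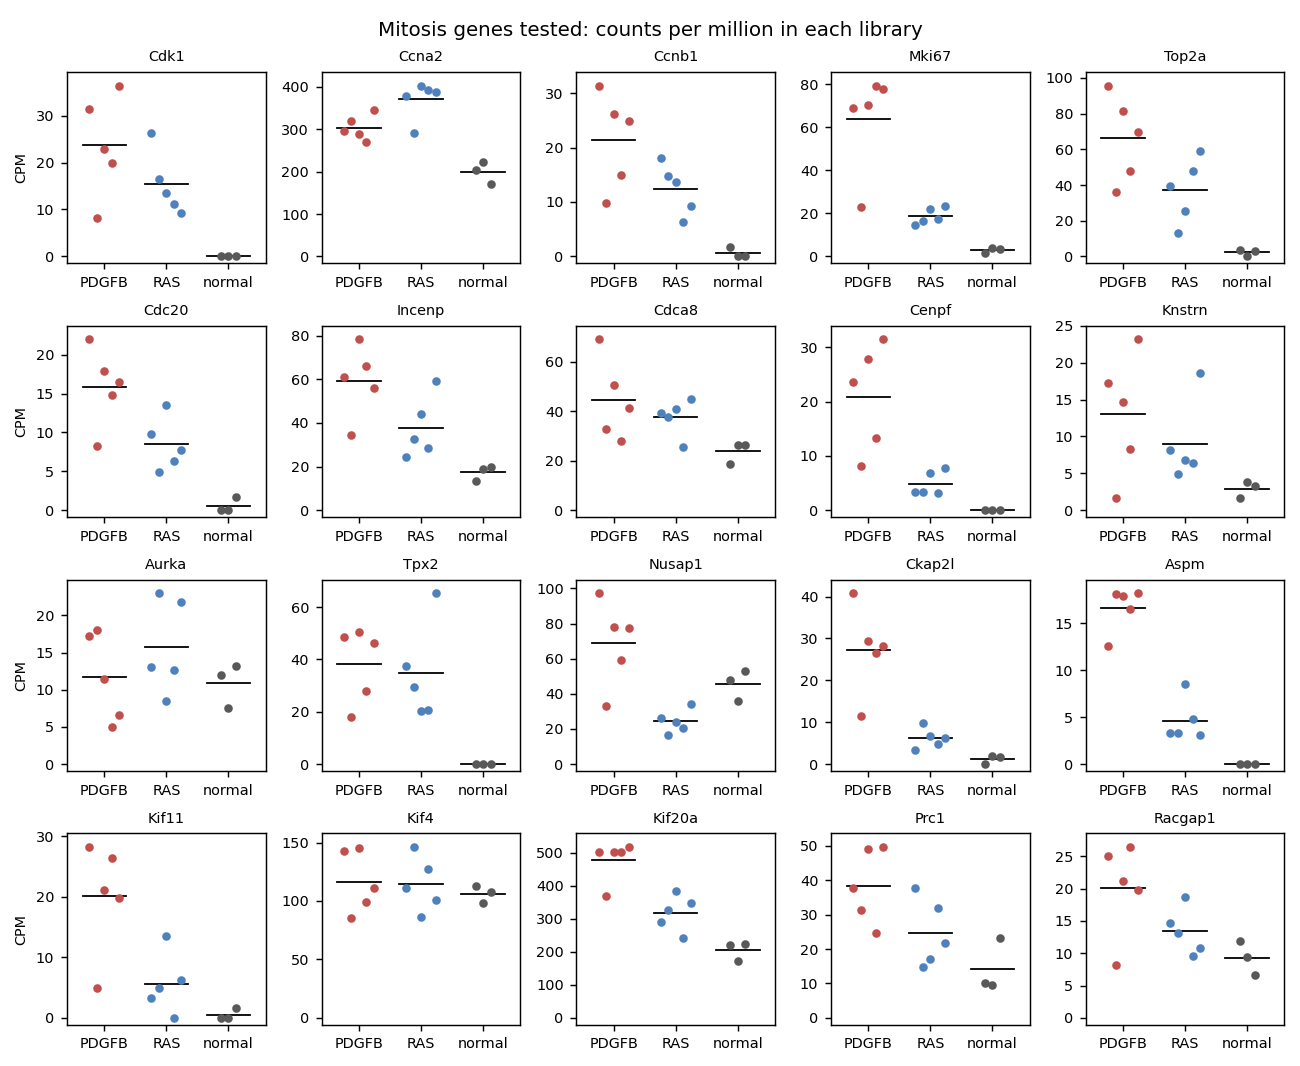
CPM (y axis, each panel on its own scale from 0) of the 20 mitosis genes that passed the filter, in each library of PDGFB tumors, RAS tumors and normal brain (x axis); points are libraries and bars are group means. Cdk1, Cenpf, Tpx2 and Aspm are at 0 in all 3 normal brains, and Kif4 and Aurka overlap in all 3 groups.

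Of the cyclins and their kinase, Cdk1 and Ccnb1 rose in both tumor types. Cdk1, the kinase that starts mitosis (chromosome 10, 69335146 to 69352938, GRCm38), had 20, 5, 14, 12 and 22 reads in PDGFB tumors 1 to 5, and 16, 10, 8, 7 and 6 in RAS tumors 1 to 5. The 3 normal brains had none, and no tumor overlapped them. That is at least 13.7-fold higher in PDGFB tumors (adjusted p = 0.000174) and at least 8.75-fold higher in RAS tumors (adjusted p = 0.000326), counting 3 reads for the 3 normal brains together. Ccnb1, cyclin B1, had 20, 6, 16, 9 and 15 reads in PDGFB tumors, 11, 9, 8, 4 and 6 in RAS tumors, and 1, 0 and 0 in normal brains. Every tumor was above every normal brain. The ratio of counts was 37.0 in PDGFB tumors (95% counting interval 6.42 to 1484, adjusted p = 0.00027). In RAS tumors it was 21.2 (3.59 to 860.5, adjusted p = 0.00107). Ratios and lower bounds are scaled to library totals alone. The fits that gave the p-values put Ccnb1 at 24-fold and 15.25-fold. Ccnb2, cyclin B2, did not pass the filter, with 2 to 8 reads per PDGFB tumor, 2 to 5 per RAS tumor and 0 in normal brain.

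Ccna2, cyclin A2 (chromosome 3, 36564865 to 36572150), behaved differently. It had 188, 194, 177, 163 and 208 reads in PDGFB tumors, 231, 177, 237, 246 and 249 in RAS tumors, and 120, 118 and 104 in normal brains. No tumor overlapped normal brain, and RAS tumor 2 lay among the PDGFB tumors. Ccna2 rose in RAS tumors (log2 fold change 0.80 ± 0.19 SE, adjusted p = 0.00191), and in PDGFB tumors its log2 fold change was 0.36 ± 0.19 (adjusted p = 0.129). The PDGFB value passed the threshold without RAS tumor 2 (0.46, adjusted p = 0.0388), in a fit of those 2 groups alone (0.49, adjusted p = 0.0125) and when scaled to library totals (0.60, adjusted p = 0.0126). Its opposite row Exosc9 held 32 reads in all normal brains and 4171 in PDGFB tumors, so that the 2 together rose 2.697 ± 0.25 in PDGFB tumors and 1.91 ± 0.24 in RAS tumors (log2, adjusted p = 5.87e-07 and 6.24e-06).

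Mki67 and Top2a, of the proliferation marker and chromosome structure group, rose in both tumor types. Mki67, the Ki-67 antigen that coats mitotic chromosomes (chromosome 7, 135689784 to 135716361), had 44, 14, 43, 48 and 47 reads in PDGFB tumors, 9, 10, 13, 11 and 15 in RAS tumors, and 1, 2 and 2 in normal brains. PDGFB tumors 1, 3, 4 and 5 stood above all others, and PDGFB tumor 2 fell among the RAS tumors. The level was 63.8 ± 23.3 CPM in PDGFB tumors, 18.8 ± 3.72 CPM in RAS tumors and 2.93 ± 1.09 CPM in normal brain. Mki67 rose by a log2 fold change of 4.14 ± 0.53 in PDGFB tumors (adjusted p = 1.34e-05) and 2.53 ± 0.59 in RAS tumors (adjusted p = 0.00139). Top2a, the topoisomerase that untangles sister chromatids (chromosome 11, 98992943 to 99024189), had 61, 22, 50, 29 and 42 reads in PDGFB tumors, 24, 8, 15, 30 and 38 in RAS tumors, and 2, 0 and 2 in normal brains. The 2 tumor types overlapped and normal brain stood below both. Its log2 fold change was 4.50 ± 0.69 in PDGFB tumors (adjusted p = 6.74e-05) and 3.82 ± 0.72 in RAS tumors (adjusted p = 0.000235). Espl1, separase, which cuts the cohesin that holds chromatids together, did not pass the filter (3 to 6 reads per PDGFB tumor, 1 to 7 per RAS tumor, 0 to 2 per normal brain).

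Of the regulators, neither passed the filter, and Melk was higher in both tumor types in the fit with no filter. Foxm1, a transcription factor of late cell cycle genes, had 3 to 10 reads per PDGFB tumor, 2 to 7 per RAS tumor and 1 to 2 per normal brain (adjusted p = 0.149 and 0.416 with no filter). Melk, a kinase of dividing cells, had 1 to 13 reads per PDGFB tumor, 0 to 9 per RAS tumor and 0 in normal brain (adjusted p = 0.00182 and 0.00754 with no filter).

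Of the 5 checkpoint and anaphase genes only Cdc20 passed the filter, and it rose in both tumor types. Cdc20, which activates the anaphase-promoting complex (chromosome 4, 118432901 to 118437352), had 14, 5, 11, 9 and 10 reads in PDGFB tumors, 6, 3, 8, 4 and 5 in RAS tumors, and 0, 0 and 1 in normal brains. No tumor overlapped normal brain. The ratio of counts was 27.5 in PDGFB tumors (95% counting interval 4.71 to 1107, adjusted p = 0.000615) and 14.5 in RAS tumors (2.39 to 596, adjusted p = 0.00354). Bub1, a checkpoint kinase, had 3 to 11 reads per PDGFB tumor, 0 to 7 per RAS tumor and 0 in normal brain. Bub1b, which inhibits Cdc20, had 7 to 10 reads per PDGFB tumor, 1 to 8 per RAS tumor and 0 in normal brain. Ttk, the Mps1 checkpoint kinase, had 0 to 2 reads per PDGFB tumor, 1 per RAS tumor and 0 to 1 per normal brain, at which level no difference was detectable. Ube2c, the ubiquitin carrier of the anaphase-promoting complex, had 5 to 15 reads per PDGFB tumor, 3 to 16 per RAS tumor and 0 to 1 per normal brain.

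In the chromosomal passenger complex, Incenp rose in both tumor types and Cdca8 did not pass the test. Incenp, the scaffold of the complex (chromosome 19, 9872296 to 9899551), had 39, 21, 48, 40 and 34 reads in PDGFB tumors, 15, 20, 26, 18 and 38 in RAS tumors, and 8, 10 and 12 in normal brains. All tumors lay above normal brain. The log2 fold change was 1.52 ± 0.38 in PDGFB tumors (adjusted p = 0.00343) and 1.03 ± 0.39 in RAS tumors (adjusted p = 0.0305), and the RAS call ended without normal brain 1 or 2 (adjusted p 0.0567 and 0.105) and with limma-voom (0.0652). Cdca8, Borealin (chromosome 4, 124918465 to 124939311), had 44, 20, 31, 17 and 25 reads in PDGFB tumors, 24, 23, 24, 16 and 29 in RAS tumors, and 11, 14 and 16 in normal brains. PDGFB tumors lay above normal brain, and RAS tumors overlapped it. Its log2 fold change was 0.66 ± 0.34 in PDGFB tumors (adjusted p = 0.12; 0.0451 without PDGFB tumor 4) and 0.56 ± 0.34 in RAS tumors (adjusted p = 0.171). Aurkb, the kinase of the complex, had 1 to 5 reads per PDGFB tumor, 1 to 4 per RAS tumor and 0 in normal brain. Birc5, Survivin, had 1 to 9 reads per PDGFB tumor, 1 to 8 per RAS tumor and 0 in normal brain.

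At the kinetochore, Cenpf rose in both tumor types. Cenpf, a large outer kinetochore protein (chromosome 1, 189640606 to 189688086), had 15, 5, 17, 8 and 19 reads in PDGFB tumors and 2, 2, 4, 2 and 5 in RAS tumors, with none in normal brain. PDGFB tumors, RAS tumors and normal brain did not overlap. That is at least 11.97-fold higher in PDGFB tumors (adjusted p = 0.000277) and at least 2.79-fold higher in RAS tumors (adjusted p = 0.0103). Knstrn, the small kinetochore associated adaptor (chromosome 2, 118814003 to 118853957), had 11, 1, 9, 5 and 14 reads in PDGFB tumors, 5, 3, 4, 4 and 12 in RAS tumors, and 1, 2 and 2 in normal brains. PDGFB tumor 2, at 1.64 CPM, lay below the normal brains, at 1.70 to 3.78 CPM. Its log2 fold change was 1.86 ± 0.79 in PDGFB tumors (adjusted p = 0.0619) and 1.49 ± 0.81 in RAS tumors (adjusted p = 0.128). The PDGFB value passed without PDGFB tumor 2, PDGFB tumor 4 or RAS tumor 2 (adjusted p 0.0172 to 0.0477), with no filter (0.0412) and under library totals (0.0338). The Ndc80 complex members, which grip microtubule ends, were low: Ndc80 had 1 to 5 reads per PDGFB tumor, 1 to 8 per RAS tumor and 0 in normal brain, and Nuf2 had 3 to 13, 1 to 5 and 0 to 1. Cenpe, the kinetochore motor, had 1 to 11 reads per PDGFB tumor, 0 to 8 per RAS tumor and 0 in normal brain. Nek2, a centrosome and kinetochore kinase, had 5 to 18 reads per PDGFB tumor, 1 to 7 per RAS tumor and 0 in normal brain, at least 10.1-fold and 3.54-fold higher in the tumors.

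Among spindle and centrosome genes, Tpx2, Aspm and Ckap2l rose in both tumor types, and Nusap1 fell in RAS tumors. Tpx2, the activator of Aurora A (chromosome 2, 152847964 to 152895321), had 31, 11, 31, 17 and 28 reads in PDGFB tumors and 23, 18, 12, 13 and 42 in RAS tumors, with none in normal brain. Both tumor types overlapped each other and stood clear of normal brain. That is at least 22.1-fold higher in PDGFB tumors (adjusted p = 8.62e-05) and at least 20.1-fold higher in RAS tumors (adjusted p = 5.05e-05). Aspm, a spindle pole protein of neural progenitors (chromosome 1, 139454772 to 139494091), had 8, 11, 11, 10 and 11 reads in PDGFB tumors and 2, 2, 5, 3 and 2 in RAS tumors, with none in normal brain. The 3 groups did not overlap. That is at least 9.54-fold higher in PDGFB tumors (adjusted p = 0.000135) and at least 2.61-fold higher in RAS tumors (adjusted p = 0.0041). Ckap2l, a spindle protein of neural progenitors (chromosome 2, 129268210 to 129297212), had 26, 7, 18, 16 and 17 reads in PDGFB tumors, 2, 6, 4, 3 and 4 in RAS tumors, and 0, 1 and 1 in normal brains. The 3 groups did not overlap. The ratio of counts was 23.6 in PDGFB tumors (95% counting interval 6.32 to 198, adjusted p = 0.000164) and 5.31 in RAS tumors (1.28 to 47.0, adjusted p = 0.0368). The RAS call ended without RAS tumor 2 or any 1 normal brain (adjusted p 0.0506 to 0.126), with no or a looser filter, and with DESeq2 or limma-voom (0.0526 to 0.112).

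Nusap1, which bundles spindle microtubules around chromosomes (chromosome 2, 119618298 to 119651244), had 62, 20, 48, 36 and 47 reads in PDGFB tumors, 16, 10, 14, 13 and 22 in RAS tumors, and 28, 19 and 32 in normal brains. RAS tumors lay below normal brain, and PDGFB tumors overlapped it through PDGFB tumor 2. Nusap1 fell in RAS tumors (log2 fold change -0.99 ± 0.35, adjusted p = 0.023), a call that ended without normal brain 1 or 3 or RAS tumor 2 or 4 (adjusted p 0.0733 to 0.125). In PDGFB tumors its log2 fold change was 0.37 ± 0.34 (adjusted p = 0.387). Aurka, the Aurora A kinase (chromosome 2, 172356190 to 172370535), had 11, 11, 7, 3 and 4 reads in PDGFB tumors, 8, 14, 5, 8 and 14 in RAS tumors, and 7, 4 and 8 in normal brains. All 3 groups overlapped. Its log2 fold change was -0.14 ± 0.50 in PDGFB tumors (adjusted p = 0.835; 0.09 under library totals) and 0.43 ± 0.49 in RAS tumors (adjusted p = 0.471). Plk1, the Polo kinase, had 1 to 9 reads per PDGFB tumor, 0 to 7 per RAS tumor and 3 to 12 per normal brain, or 7.08 ± 5.98 CPM in PDGFB tumors, 4.88 ± 4.30 CPM in RAS tumors and 11.9 ± 7.23 CPM in normal brain. Hmmr, a spindle pole and hyaluronan binding protein, had 1 to 5 reads per PDGFB tumor, 0 to 5 per RAS tumor and 0 in normal brain. Ckap2, a spindle microtubule protein, had 1 to 13 reads per PDGFB tumor, 1 to 10 per RAS tumor and 0 in normal brain.

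Of the 5 kinesins, motors that slide or shorten microtubules, Kif11 rose in PDGFB tumors. Kif11, the motor that pushes spindle poles apart (chromosome 19, 37376403 to 37421859), had 18, 3, 13, 16 and 12 reads in PDGFB tumors, 2, 3, 8, 0 and 4 in RAS tumors, and 0, 0 and 1 in normal brains. PDGFB tumors stood clear of normal brain, and RAS tumor 4 overlapped it. The ratio of counts was 34.8 in PDGFB tumors (95% counting interval 6.02 to 1395, adjusted p = 0.00247) and 9.50 in RAS tumors (1.49 to 397, adjusted p = 0.0666). The RAS value passed without PDGFB tumor 2 or RAS tumor 4 (adjusted p 0.0228 and 0.0468), with no filter (0.0381) and with DESeq2 (0.0471). Kif4, the chromosome arm motor (chromosome X, 100625737 to 100727214), had 91, 52, 89, 60 and 67 reads in PDGFB tumors, 68, 89, 51, 80 and 65 in RAS tumors, and 66, 52 and 65 in normal brains. All 3 groups overlapped, and its log2 fold changes were -0.09 ± 0.24 and 0.01 ± 0.24 (adjusted p = 0.775 and 0.966), with signs that turned under other scalings. Kif2c, a kinesin that shortens microtubules at centromeres, had 1 to 10 reads per PDGFB tumor, 0 to 7 per RAS tumor and 0 in normal brain. Kif18b, a plus end motor, had 0 to 8, 1 to 4 and 0 reads in the same order. Kifc1, a minus end motor, had 2 to 5 reads per PDGFB tumor, 0 to 2 per RAS tumor and 0 to 1 per normal brain.

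For cytokinesis, Kif20a rose in both tumor types and Prc1 in PDGFB tumors. Kif20a, the motor that carries the passenger complex to the central spindle (chromosome 18, 34624613 to 34633277), had 321, 225, 308, 305 and 313 reads in PDGFB tumors, 177, 200, 226, 152 and 223 in RAS tumors, and 129, 91 and 135 in normal brains. PDGFB tumors 1, 3, 4 and 5 lay within 502 to 518 CPM and PDGFB tumor 2 at 370 CPM, and no tumor overlapped normal brain. Kif20a rose by a log2 fold change of 0.99 ± 0.21 in PDGFB tumors (adjusted p = 0.000855) and 0.54 ± 0.20 in RAS tumors (adjusted p = 0.0308), where the call ended without normal brain 2 (adjusted p = 0.115) and with no filter (0.0719). Prc1, which bundles the central spindle (chromosome 7, 80294450 to 80316259), had 24, 19, 30, 15 and 30 reads in PDGFB tumors, 23, 9, 10, 20 and 14 in RAS tumors, and 6, 5 and 14 in normal brains. RAS tumors overlapped normal brain and PDGFB tumors did not. Its log2 fold change was 1.18 ± 0.42 in PDGFB tumors (adjusted p = 0.0287) and 0.68 ± 0.43 in RAS tumors (adjusted p = 0.19), and without PDGFB tumor 5, or without normal brains 1 or 2, the PDGFB call ended (0.0594 to 0.0847). Racgap1, the GTPase-activating part of the central spindle complex (chromosome 15, 99620496 to 99651656), had 16, 5, 13, 16 and 12 reads in PDGFB tumors, 9, 8, 11, 6 and 7 in RAS tumors, and 7, 5 and 4 in normal brains. Both tumor types overlapped normal brain, with log2 fold changes of 0.87 ± 0.44 (adjusted p = 0.117; 0.0346 without PDGFB tumor 2) and 0.42 ± 0.46 (adjusted p = 0.456). Kif23, the motor of the same complex, had 1 to 11 reads per PDGFB tumor, 2 to 8 per RAS tumor and 0 in normal brain. Ect2, the exchange factor that calls up the contractile ring, had 6 to 13 reads per PDGFB tumor, 1 to 6 per RAS tumor and 0 in normal brain. Anln, a ring scaffold also made by oligodendrocytes, had 3 to 11 reads per PDGFB tumor, 5 to 13 per RAS tumor and 2 to 5 per normal brain.

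The 23 genes too low for the filter pointed mostly the same way. In the fit with no filter 17 of them were higher in PDGFB tumors and 15 in RAS tumors, and none was lower in either. Of all 23301 entries in that fit, 8.37% and 11.6% were higher. Plk1 went the other way, with log2 fold changes of -0.83 and -1.30 (adjusted p = 0.398 and 0.142). Of the 23, 15 had no read in normal brain, and for these the lower bound in PDGFB tumors ran between 2.24-fold (Ndc80) and 10.1-fold (Nek2). In RAS tumors it ran between 1.68-fold (Kif18b) and 4.10-fold (Ckap2). Foxm1, Espl1, Ttk, Plk1, Kifc1 and Anln were not past the threshold in PDGFB tumors in that fit (adjusted p 0.057 to 0.582). Per kb of exon and over the 5 PDGFB tumors, the genes with no opposite exon that held most reads were Incenp (42.0), Tpx2 (25.2) and Top2a (22.6), while Kif20a (339) and Ccna2 (228), both with an opposite exon, exceeded all of them.

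**Figure D3:**
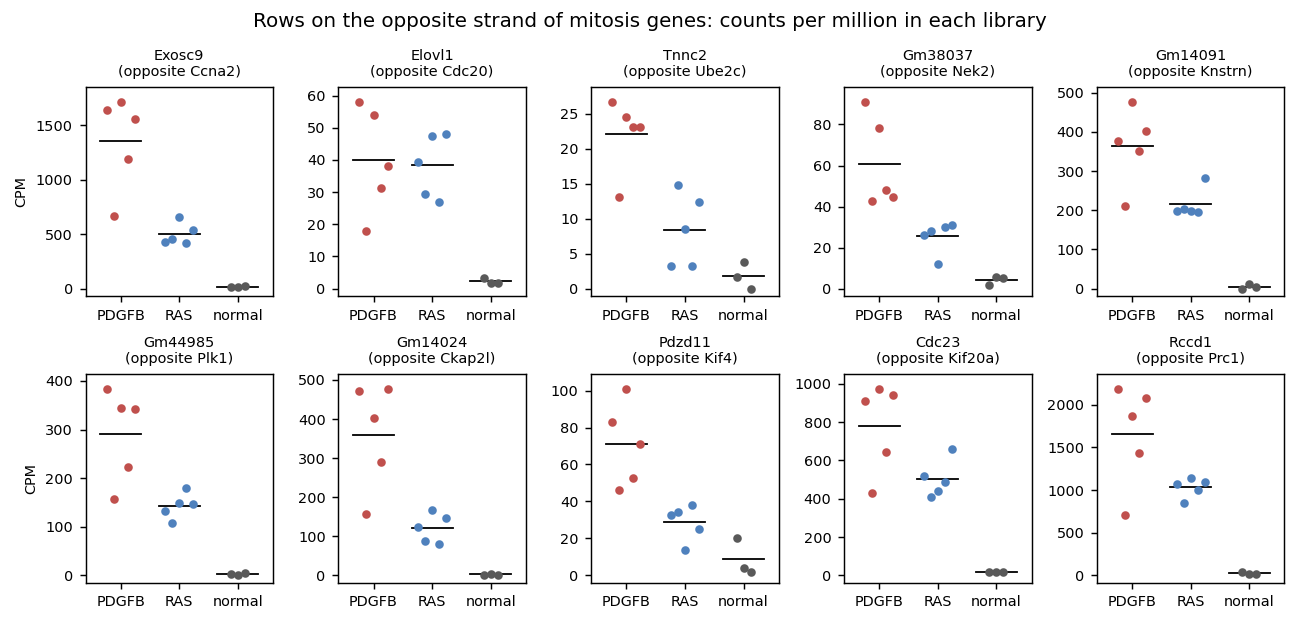
CPM (y axis, each panel on its own scale from 0) of the 10 opposite rows that passed the filter, in each library of PDGFB tumors, RAS tumors and normal brain (x axis); points are libraries and bars are group means. Normal brains lie at or near 0 in most panels, and 8 of the 10 rows show no overlap between RAS tumors and normal brain.

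The opposite rows rose in tumors. All 10 that passed the filter rose in both tumor types, where 20.2% and 26.9% of all genes tested did. Their median log2 fold change was 5.56 in PDGFB tumors and 4.70 in RAS tumors. With no filter 10 of the 12 were higher in each tumor type, where 8.37% and 11.6% of 23301 entries were. A row near 0 in normal brain can pass the filter through the tumors alone, so these counts support nothing by themselves. None of the 10 overlapped normal brain in PDGFB tumors. In RAS tumors Tnnc2 and Pdzd11 overlapped it, and the other 8 did not. Of all 23301 entries with a read, 11.6% in PDGFB tumors and 11.4% in RAS tumors lay above normal brain with no overlap. Rccd1, opposite Prc1 over 911 bases of exon, had 1396, 431, 1144, 871 and 1257 reads in PDGFB tumors, 653, 520, 673, 627 and 703 in RAS tumors, and 24, 7 and 10 in normal brains. PDGFB tumor 2 lay under every RAS tumor. The log2 fold change was 5.88 ± 0.44 in PDGFB tumors (adjusted p = 6.62e-08) and 5.34 ± 0.43 in RAS tumors (adjusted p = 7.69e-08). Exosc9, an RNA exosome subunit opposite Ccna2 over 510 bases, had 1048, 408, 1052, 719 and 944 reads in PDGFB tumors, 261, 276, 386, 266 and 348 in RAS tumors, and 8, 8 and 16 in normal brains. The 3 groups did not overlap. The log2 fold change was 5.95 ± 0.39 in PDGFB tumors (adjusted p = 2.34e-08) and 4.65 ± 0.38 in RAS tumors (adjusted p = 7.79e-08). Cdc23, itself a subunit of the anaphase-promoting complex and opposite Kif20a over 1271 bases, had 580, 263, 598, 389 and 569 reads in PDGFB tumors, 318, 250, 259, 306 and 424 in RAS tumors, and 11, 8 and 11 in normal brains. The tumor types overlapped each other. It rose by a log2 fold change of 5.24 ± 0.36 in PDGFB tumors (adjusted p = 3.15e-08) and 4.75 ± 0.35 in RAS tumors (adjusted p = 3.26e-08).

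The 4 rows without a protein name rose as well. Gm14024, an antisense transcript opposite Ckap2l over 181 bases, had 300, 96, 247, 176 and 289 reads in PDGFB tumors, 76, 54, 99, 51 and 94 in RAS tumors, and 1, 2 and 1 in normal brains. PDGFB tumor 2 lay within the RAS tumors. Gm14024 rose by 6.93 ± 0.57 on the log2 scale in PDGFB tumors (adjusted p = 1.64e-07) and 5.51 ± 0.58 in RAS tumors (adjusted p = 1.1e-06). Gm44985, opposite Plk1 over 156 bases, had 245, 96, 211, 135 and 207 reads in PDGFB tumors, 81, 66, 87, 113 and 95 in RAS tumors, and 2, 0 and 3 in normal brains. Every tumor stood clear of normal brain, while Plk1 itself had 22 reads in the PDGFB tumors, 15 in the RAS tumors and 21 in the normal brains. The log2 fold change of Gm44985 was 6.33 ± 0.52 in PDGFB tumors (adjusted p = 1.64e-07) and 5.46 ± 0.53 in RAS tumors (adjusted p = 4.56e-07). Gm14091, antisense to Knstrn over 123 bases, had 240, 129, 292, 212 and 243 reads in PDGFB tumors, 121, 124, 116, 123 and 181 in RAS tumors, and 0, 6 and 2 in normal brains. RAS tumor 5 stood apart from the other 4 RAS tumors, as it did for Knstrn. Gm14091 rose by 5.99 ± 0.51 on the log2 scale in PDGFB tumors (adjusted p = 2.24e-07) and 5.38 ± 0.51 in RAS tumors (adjusted p = 3.97e-07). Gm38037, antisense to Nek2 over 298 bases, had 58, 26, 48, 29 and 27 reads in PDGFB tumors, 16, 17, 7, 19 and 20 in RAS tumors, and 1, 3 and 3 in normal brains. The 3 groups did not overlap. Gm38037 rose by 3.61 ± 0.51 on the log2 scale in PDGFB tumors (adjusted p = 3.08e-05) and 2.50 ± 0.54 in RAS tumors (adjusted p = 0.000726).

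Elovl1, a fatty acid elongase opposite Cdc20 over 53 bases, had 37, 11, 33, 19 and 23 reads in PDGFB tumors, 24, 18, 28, 17 and 31 in RAS tumors, and 2, 1 and 1 in normal brains. The tumor types overlapped and both stood above normal brain (log2 fold change 3.77 ± 0.58 and 3.85 ± 0.57, adjusted p = 6.51e-05 and 2.95e-05). Pdzd11, a PDZ domain protein opposite Kif4 over 832 bases, had 53, 28, 62, 32 and 43 reads in PDGFB tumors, 20, 21, 8, 24 and 16 in RAS tumors, and 12, 2 and 1 in normal brains. RAS tumor 3 fell among the normal brains. Pdzd11 rose in PDGFB tumors (2.77 ± 0.54, adjusted p = 0.00052) and in RAS tumors (1.61 ± 0.56, adjusted p = 0.0214), where the call ended without normal brain 2 or 3 (0.0906 and 0.0957). Tnnc2, a muscle troponin opposite Ube2c over 592 bases, had 17, 8, 15, 14 and 14 reads in PDGFB tumors, 2, 9, 5, 2 and 8 in RAS tumors, and 1, 2 and 0 in normal brains. RAS tumors 1 and 4 lay within normal brain. The ratio of counts was 12.7 in PDGFB tumors (95% counting interval 4.17 to 63.2, adjusted p = 0.00136) and 4.84 in RAS tumors (1.48 to 25.0, adjusted p = 0.0364), and without RAS tumors 2 or 5, or without normal brains 1 or 3, the RAS call ended (0.0552 to 0.13) and with limma-voom (0.095). The remaining opposite rows did not pass the filter: 9930104L06Rik, opposite Cdca8, had 0 to 1 reads per PDGFB tumor, 0 to 2 per RAS tumor and 0 to 3 per normal brain, and Oip5, a centromere protein opposite Nusap1, had 2 to 6, 0 to 2 and 0 to 2.

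**Figure D4:**
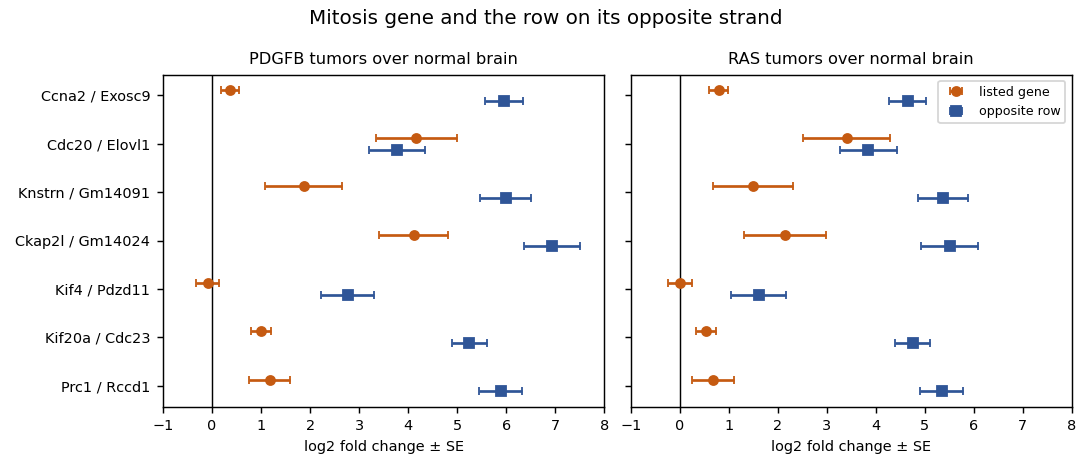
Log2 fold change ± SE (x axis) of PDGFB tumors over normal brain (left) and RAS tumors over normal brain (right) for the 7 pairs in which a mitosis gene (circle) and its opposite row (square) were both tested. The square lies right of the circle in all pairs but Cdc20 with Elovl1 in PDGFB tumors.

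Reads of a pair stood in different proportion by group. Rccd1 held 43.2 reads for each Prc1 read in PDGFB tumors and 41.8 in RAS tumors, against 1.64 in normal brain. Exosc9 held 4.48 reads for each Ccna2 read in PDGFB tumors and 1.35 in RAS tumors, against 0.0936 in normal brain. Cdc23 held 1.63 reads for each Kif20a read in PDGFB tumors and 1.59 in RAS tumors, against 0.0845 in normal brain. Other pairs showed no such rise. Elovl1 held 2.51 and 4.54 reads for each Cdc20 read, against 4 in normal brain. Tnnc2 held 1.62 and 0.667 for each Ube2c read, against 3. Cdc20 and Ube2c had 1 read each in normal brain. 9930104L06Rik held 0.0146 and 0.0345 reads for each Cdca8 read, against 0.0976. Where each listed gene was summed with its opposite row before the test, 23 of the 43 passed the filter. Of these, 18 were higher in PDGFB tumors (20.2% of all genes tested) and 17 were higher and 1, Nusap1, lower in RAS tumors (27.0% and 29.2%). The sum of Prc1 and Rccd1 rose 5.24 ± 0.39 in PDGFB tumors and 4.70 ± 0.38 in RAS tumors, that of Kif20a and Cdc23 rose 2.27 ± 0.24 and 1.80 ± 0.23, and that of Plk1 and Gm44985 rose 4.07 ± 0.42 and 3.21 ± 0.42 (log2, adjusted p between 7.27e-08 and 7.36e-06). The sum of Kif4 and Pdzd11 did not pass (0.48 ± 0.26, adjusted p = 0.142, and 0.23 ± 0.26, adjusted p = 0.478).

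Between the tumor types, 6 of the 20 genes tested were higher in PDGFB tumors than in RAS tumors and 1 was lower, where 14.6% of all genes tested were higher and 17.4% lower. The 6 were Mki67, Cenpf, Nusap1, Ckap2l, Aspm and Kif11. A gene low in RAS tumors, as Cenpf, Ckap2l, Aspm and Kif11 were, can pass the filter through the PDGFB tumors alone. These filtered counts therefore describe the 20 and support nothing by themselves. Without RAS tumor 2 the counts were again 6 higher and 1 lower of 20. Of all 7580 genes tested in that fit, 1541 were higher and 1502 lower, a larger share than with all libraries. In a fit of the 10 tumors alone 12 genes passed the filter and 2 of them were higher, where 14.2% of all genes tested were, so that this share was near the background. With no filter 7 of the 43 were higher (6.74% of all), the 6 and Nek2, and none was lower. In PDGFB tumors 4 of the 43 lay above RAS tumors with no overlap, where 4.72% of all entries with a read did. They were Cenpf, Ckap2l, Aspm and Ect2. Ckap2l had the largest log2 fold change among the 6, 1.97 ± 0.42 (adjusted p = 0.00184). Cenpf differed by 1.91 ± 0.50 (adjusted p = 0.00814), Aspm by 1.68 ± 0.43 (adjusted p = 0.00789) and Mki67 by 1.61 ± 0.32 (adjusted p = 0.00101). Nusap1 differed by 1.36 ± 0.30 (adjusted p = 0.00246), with its RAS values below normal brain. Kif11 differed by 1.69 ± 0.59 (adjusted p = 0.0362), which did not pass without PDGFB tumor 1, 3, 4 or 5 or RAS tumor 1, 4 or 5 (adjusted p 0.0502 to 0.085). In the fit of entries with no opposite exon, 4 of 12 genes tested were higher (13.4% of that fit).

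Ccna2 was the gene called lower in PDGFB tumors, at 303 ± 28.8 CPM in PDGFB tumors and 370 ± 45.3 CPM in RAS tumors (log2 fold change -0.43 ± 0.16, adjusted p = 0.0477). The groups overlapped through RAS tumor 2, and the call held without RAS tumor 2 (adjusted p = 0.0103) but ended without any 1 of the other 12 libraries (0.053 to 0.135), and under 2 groups alone, library totals, other size factors and both other filters (0.057 to 0.329). Summed with Exosc9 it turned to 0.79 ± 0.19 (adjusted p = 0.00447). Cdk1, Ccnb1, Top2a, Cdc20, Tpx2 and Incenp, which rose in both tumor types, did not differ past the threshold between them: Cdk1 at 0.50 ± 0.40 (adjusted p = 0.368), Ccnb1 at 0.65 ± 0.40 (0.226), Top2a at 0.68 ± 0.37 (0.17), Cdc20 at 0.76 ± 0.43 (0.184), Incenp at 0.50 ± 0.29 (0.201) and Tpx2 at -0.01 ± 0.37 (0.993). Kif20a differed by 0.45 ± 0.17 (adjusted p = 0.0514), which passed without PDGFB tumor 2, RAS tumor 3 or 5 or normal brain 1 or 2 (0.0241 to 0.0497), under library totals (0.0118) and with DESeq2 or limma-voom (0.0428 and 0.0312). Cdca8, Knstrn, Aurka, Prc1, Racgap1 and Kif4 had adjusted p-values between 0.256 and 0.81.

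Of the 10 opposite rows, 6 were higher in PDGFB tumors and none lower, where 14.6% of all genes tested were higher and 17.4% lower. A row low in RAS tumors, as Tnnc2 was, can pass the filter through the PDGFB tumors alone, so this count supports nothing by itself. Without PDGFB tumor 1 the count was 3, where 929 of all 7546 genes tested were higher. At an adjusted p under 0.01 it was 2, where 626 of all 7722 were. Gm14024 differed by 1.42 ± 0.29 (adjusted p = 0.00124), Exosc9 by 1.30 ± 0.24 (adjusted p = 0.000545) and Gm38037 by 1.11 ± 0.31 (adjusted p = 0.0114). Gm44985 differed by 0.87 ± 0.27 (adjusted p = 0.0196), which did not pass without PDGFB tumor 1 (0.059). Pdzd11 differed by 1.16 ± 0.37 (adjusted p = 0.0249), which did not pass without PDGFB tumor 1 or 3 or RAS tumor 3 (0.0521 to 0.0657). Tnnc2 differed by 1.23 ± 0.45 (adjusted p = 0.043), which did not pass without any 1 of 7 tumors, PDGFB tumors 1, 3, 4 and 5 and RAS tumors 1, 3 and 4 (0.06 to 0.0998). Rccd1, Cdc23, Gm14091 and Elovl1 did not pass (0.54, 0.49, 0.61 and -0.08, adjusted p = 0.128, 0.0971, 0.102 and 0.865). Without PDGFB tumor 2 the first 3 of these passed too, so that 9 of 10 were higher, with adjusted p of 0.0176 for Rccd1 and 0.047 for Gm14091; Cdc23 passed without it or without RAS tumor 5 (0.0168 and 0.0438). Over all 7549 genes tested without PDGFB tumor 2, 974 were higher. Summed with their opposite rows, 9 of 23 listed genes were higher in PDGFB tumors (14.6% of all).

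**Figure D5:**
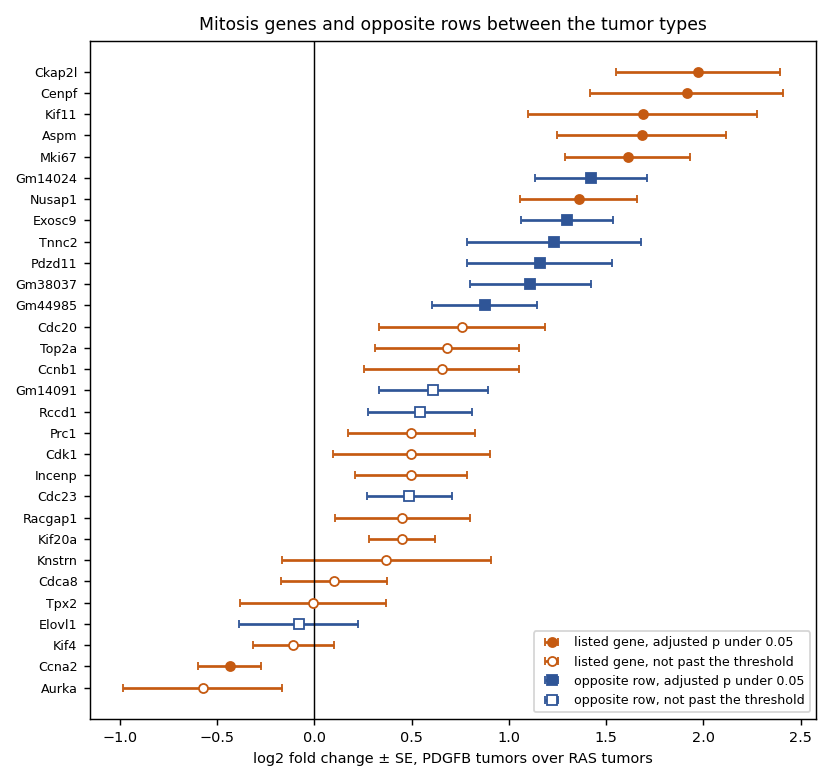
Log2 fold change ± SE (x axis) of PDGFB tumors over RAS tumors for the 20 mitosis genes (circles) and 10 opposite rows (squares) that were tested, ordered by value (y axis); filled symbols have an adjusted p under 0.05. Ckap2l (1.97) stands at the top, and Ccna2 (-0.43) is the filled symbol left of 0.

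A wider list of 111 other mitosis genes (condensins, cohesins, the anaphase-promoting complex, centromere and centriole proteins) was read beside the 43. Of 38 that passed the filter, 14 were higher and 1 was lower in PDGFB tumors, set against normal brain, 9 were higher and 2 lower in RAS tumors, and 10 were higher and 4 lower in PDGFB tumors than in RAS tumors. The higher calls were 36.8% of the 38 in PDGFB tumors (20.2% of all genes tested) and 23.7% in RAS tumors (26.9% of all). Between the tumor types they were 26.3% (14.6% of all). The RAS share lay under that of all genes in this filtered test, but not with no filter. There the higher calls were 32.4% of the 111 in PDGFB tumors (8.37% of all entries) and 22.5% in RAS tumors (11.6%). Between the tumor types they were 10.8% (6.74%). A gene near 0 in 1 group can pass the filter through another, so the filtered counts support nothing by themselves. The filtered count of 10 fell to 3, 5 and 6 without PDGFB tumors 1, 3 and 5. In those fits 929 of 7546, 989 of 7587 and 958 of 7563 genes tested were higher. The count fell to 6 with the 2 tumor types alone (14.2% of all) and to 5 at an adjusted p under 0.01 (626 of all 7722). The RAS count of 9 fell to 4 at 0.01 (1532 of all 7722). The median log2 fold changes of the 38 were 0.59, 0.51 and 0.28. Arhgap11a, a regulator of cytokinesis, had 8 to 20 reads per PDGFB tumor, 2 to 15 per RAS tumor and 0 in normal brain, at least 11.2-fold and 5.40-fold higher in the tumors (adjusted p = 0.000625 and 0.00275). Smc4, a condensin core subunit, had 10 to 30 reads per PDGFB tumor, 6 to 16 per RAS tumor and 0 to 2 per normal brain, count ratios of 26.1 (95% counting interval 7.02 to 218.5, adjusted p = 0.000246) and 16.2 (4.29 to 137, adjusted p = 0.000694). Smc2, its partner, had 6 to 20 reads per PDGFB tumor, 3 to 12 per RAS tumor and 0 to 1 per normal brain (adjusted p = 0.00137 and 0.00641). Pbk, a mitotic kinase, had 8 to 19 reads per PDGFB tumor, 2 to 4 per RAS tumor and 0 to 1 per normal brain (adjusted p = 0.000249 and 0.0165), and was higher in PDGFB than in RAS tumors (log2 fold change 1.65 ± 0.44, adjusted p = 0.00803).

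The genes of this list called lower were few. Chmp4b, a subunit of the complex that cuts the last bridge between daughter cells, fell in PDGFB tumors against normal brain (-1.64 ± 0.42, adjusted p = 0.00439). Pkmyt1, which holds CDK1 off, was lower in RAS tumors than in normal brain (-1.72 ± 0.31, adjusted p = 0.000172). Ncapg, another condensin subunit, had 90 to 183 reads per PDGFB tumor, 13 to 45 per RAS tumor and 41 to 74 per normal brain. It was higher in PDGFB tumors than in normal brain (0.81 ± 0.31, adjusted p = 0.0445) and lower in RAS tumors (-1.11 ± 0.32, adjusted p = 0.00655), and PDGFB tumors exceeded RAS tumors by 1.91 ± 0.28 (adjusted p = 7.42e-05).

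Markers of other cell types moved with the same groups, and their part in these results was not tested. Of all genes tested, 25.1% were lower in PDGFB tumors and 29.3% in RAS tumors than in normal brain, and 20.2% and 26.9% were higher. Between the tumor types 14.6% were higher and 17.4% lower in PDGFB tumors. Of 18 neuron markers 17 were lower in PDGFB tumors and 15 in RAS tumors than in normal brain. Between the tumor types 1 was higher and 3 were lower in PDGFB tumors. In CPM the 18 summed to 387 to 869 in PDGFB tumors, 4175 to 8587 in RAS tumors and 6302 to 6717 in normal brain. Nefm held most of the RAS sum. Of 8 mature oligodendrocyte markers tested, 5 and 7 were lower, with summed levels of 847 to 923 CPM in PDGFB tumors, 602 to 936 CPM in RAS tumors and 1671 to 2423 CPM in normal brain. Cnp held most of the PDGFB and RAS sums. Of 9 oligodendrocyte precursor markers tested, 8 were higher in PDGFB tumors and 3 higher and 1 lower in RAS tumors than in normal brain, and all 9 were higher in PDGFB than in RAS tumors; they summed to 888 to 1222 CPM in PDGFB tumors, 106 to 430 CPM in RAS tumors and 138 to 161 CPM in normal brain. Of 8 macrophage and microglia markers tested, 2 were higher and 1 lower in PDGFB tumors and 6 higher in RAS tumors than in normal brain, and 7 were lower in PDGFB than in RAS tumors. They summed to 343 to 450 CPM in PDGFB tumors, 643 to 1025 CPM in RAS tumors and 372 to 416 CPM in normal brain. Csf1r and Cx3cr1 together held most of the PDGFB and normal brain sums. No endothelial or lymphocyte marker passed the filter. The 9 endothelial markers summed to 9.92 to 45.7 CPM in PDGFB tumors, 35.7 to 80.2 CPM in RAS tumors and 23.1 to 28.9 CPM in normal brain, and the 8 lymphocyte markers to 0 to 4.96, 0 to 6.36 and 1.65 to 5.67 CPM. Cd3e, Cd8a and Ms4a1 had no read in any tumor.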

How the data were processed

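Polyadenylated RNA of 13 libraries (5 PDGFB tumors, 5 RAS tumors, 3 normal brains) was sequenced, and the authors deposited raw read counts per Ensembl gene. GRCm38, fastp 0.22.0 and STAR 2.7.9a are named in the submitters' processing notes; the annotation and the strand setting of the count are not given in the sources used here. Reads in no gene, 95.2% to 95.7% of uniquely mapped reads, stayed out of library sizes and tests.

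Opposite rows came from GENCODE M21, which matched 52135 of the 55416 entries, and needed at least 1 shared exonic base. The main test was edgeR 4.0.16 (R 4.3.3), quasi-likelihood, on all 13 libraries with 1 coefficient per group, filterByExpr (minimum count 10, minimum total 15), TMM factors, and Benjamini-Hochberg adjustment over 7722 genes, two-sided, at 0.05. CPM is per 1e+06 reads counted for genes. A group with no read was set to 3 reads over the group for a lower bound. Groups with 1 to 3 reads gave a ratio with an exact 95% interval. Both use library totals without TMM factors, while the adjusted p beside them comes from the fit with those factors. The interval covers counting error only, and the bound leaves out the counting error of the tumor reads. The fits were tested on simulated data. DESeq2 1.42.0, limma 3.58.1 (voom), other size factors, filters and thresholds, 2 groups alone, rows with no opposite exon, summed pairs, a replicate block and leaving out each library were alternatives. Replicate pairs all differed by more than sampling noise (chi-square per degree of freedom at least 1.8).

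The members and lists were chosen with earlier results of these data known. By the rule for named genes, all 43 genes and their opposite rows are named, with values in every library for the 20 genes tested and the 10 opposite rows called; the wider list, of which 111 of 112 symbols matched, is named for at most the 4 highest and 4 lowest called genes in each comparison with normal brain. Promoters are from RefSeq on GRCm38.p6.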

Additional observations from a re-analysis of the deposited data

Results flagged for a closer look

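In 7 of 60 groups of 5 tumor libraries examined, 1 library stood far from the other 4 by Dixon's criterion at 95%, a criterion that chance meets in about 5% of groups. In PDGFB tumor 2 Mki67 was at 23 CPM, with 69 to 79.3 CPM in the other PDGFB tumors, Kif20a at 370 CPM, with 502 to 518 CPM, and Tnnc2 at 13.1 CPM, with 23.1 to 26.7 CPM. RAS tumor 5 was high for the pair Knstrn, at 18.7 CPM with 4.92 to 8.18 CPM in the other RAS tumors, and Gm14091, at 281 CPM with 196 to 204 CPM. Ccna2 was at 291 CPM in RAS tumor 2, with 378 to 403 CPM in the other RAS tumors. Gm38037 was at 11.9 CPM in RAS tumor 3, with 26.2 to 31.1 CPM in the other RAS tumors.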

How the results depend on the processing

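Of the 43 genes 23 were too low for the filter, and a looser filter or none changed the counts of genes called. With a looser filter or none, 31 and 31 of the 43 genes were higher in PDGFB tumors than in normal brain and 25 and 26 in RAS tumors. Among the 111 of the wider list, 36 and 36 were higher in PDGFB tumors and 25 and 25 in RAS tumors. Over all genes in those fits, 10.3% and 8.37% were higher in PDGFB tumors and 15.0% and 11.6% in RAS tumors. With 2 groups alone, 6 of the 10 genes tested were higher in RAS tumors than in normal brain (28.0% of all). In PDGFB over RAS tumors 2 of the 12 tested and 6 of the wider list were higher (14.2% of all). At an adjusted p under 0.01, 2 opposite rows and 5 of the wider list were higher in PDGFB than in RAS tumors (626 of all 7722 genes). In RAS tumors over normal brain 4 of the wider list were higher (1532 of all 7722). Fits that left out 1 library tested 17 to 25 of the 43 genes. Leaving out 1 library gave 10 to 17 genes higher in PDGFB tumors and 10 to 15 in RAS tumors than in normal brain, and 4 to 8 in PDGFB than in RAS tumors. Between the tumor types it gave 3 to 9 opposite rows, with 3 without PDGFB tumor 1, and 3 to 11 of the wider list, with 3, 5 and 6 without PDGFB tumors 1, 3 and 5. Over the 7509 to 8441 genes tested in those fits, 1383 to 1841 were higher in PDGFB tumors and 1919 to 2311 in RAS tumors than in normal brain. From 919 to 1541 were higher in PDGFB than in RAS tumors. Scaling to library totals moved the median of all genes by 0.233, 0.0944 and 0.14 (log2) in PDGFB tumors over normal brain, RAS tumors over normal brain and PDGFB over RAS tumors. The cause of these changes was not tested.

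The replicate numbers did not pair the tumors: deviations of same-numbered PDGFB and RAS tumors correlated at 0.142, -0.0192, -0.0264, -0.125 and 0.0791. With the replicate number as a block, 2 of the 12 genes tested (14.3% of all genes tested there), 5 opposite rows and 4 of the wider list were higher in PDGFB than in RAS tumors, and Tpx2 stood at 0.0388.

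Values near 0 turned sign, none of them past the threshold except Ccna2. Aurka in PDGFB tumors over normal brain stood at 0.0896 under library totals and at -0.331 to 0.127 without 1 library. Kif4 in PDGFB tumors over normal brain stood at 0.033 with 2 groups alone, 0.137 under library totals, 0.0136 with a looser filter, 0.0359 with no filter, 0.479 summed with Pdzd11 and -0.17 to 0.0496 without 1 library. Kif4 in RAS tumors over normal brain stood at -3.77e-05 with DESeq2, -0.00548 with limma-voom and -0.000436 with median-of-ratios factors, and in PDGFB over RAS tumors at 0.0275 under library totals and 0.254 summed. In PDGFB over RAS tumors, Tpx2 stood at 0.00222 with 2 groups alone, 0.139 under library totals, 0.0319 with limma-voom, 0.0442 and 0.0741 with a looser and no filter, 0.0984 among rows with no opposite exon and -0.148 to 0.386 without 1 library. Elovl1 stood at 0.0594 under library totals and -0.248 to 0.115 without 1 library, and Cdca8 at -0.111 to 0.252. Ccna2 stood at 0.79 summed with Exosc9. Of the remaining values for single genes, 1762 kept direction and side of the threshold, 77 no longer passed it and 40 newly passed it.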
